A study of Homo sapiens with 44 samples.

Results

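The chemokines CXCL9, CXCL10 and CXCL11, the ligands of the receptor CXCR3, were followed across every treatment and duration of a cytokine time course in tumor cells. The members were the 3 genes carrying these symbols, matched through their Ensembl identifiers, of 33538 genes in the tables. The cells were OVCAR5, a human cell line labelled as ovarian carcinoma and as carrying an IFNγ-sensing reporter and CFP, and all groups shared this genotype. Messenger RNA was sequenced after 2, 6, 12 or 24 h of continuous exposure. The treatments were IFNγ 100 ng/ml with TNFα 10 ng/ml (the combination), the supernatant of a co-culture of tumor cells and T cells diluted 1/20000, 1/200 or 1/2, IFNγ alone at 0.01, 1 or 100 ng/ml, TNFα alone at 0.1, 1 or 10 ng/ml, and no stimulation. Each of these 11 treatments had 1 library at each of the 4 durations, 44 in all. A single cell line stands for the tumor cells, the reporter's design is not described in the labels, and the cytokine content of the supernatant is not given in the sources used here.

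CXCR3 is a receptor of activated T cells and natural killer cells, and its ligands draw these cells along a gradient into inflamed tissue and tumors. CXCL9 (also called MIG), CXCL10 (IP-10) and CXCL11 (I-TAC) are small secreted proteins of the CXC family without the ELR motif, and their genes lie next to each other. IFNγ induces them through the JAK kinases and transcription factors that bind GAS and ISRE elements, IRF1 among them. TNFα acts through NF-κB, which binds κB elements in promoters of inflammatory chemokines. To see how the level of each ligand depended on the cytokine, its dose, its partner and the length of exposure, each gene was described in every library and the treatments were then compared.

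All 3 genes lie on the minus strand of chromosome 4 (GRCh38, GENCODE v29). CXCL9 (ENSG00000138755) spans 76001275 to 76007488, CXCL10 (ENSG00000169245) 76021117 to 76023497, and CXCL11 (ENSG00000169248) 76033682 to 76041415. The bases upstream of each RefSeq start site are printed because transcription factors of the IFNγ and TNFα pathways are known to bind regions of this kind. They are RefSeq sequences of GRCh38.p14 on the minus strand, 5′ to 3′, for CXCL9 at chr4:76007510-76007759, for CXCL10 at chr4:76023498-76023747 and for CXCL11 at chr4:76036198-76036320. For CXCL11 the 127 bases nearest the RefSeq start were searched but are not printed, because a v29 exon of the gene covers them. The RefSeq start of CXCL11, at 76036070, lies inside the v29 span of the gene, and so does its whole window. Capitals mark matches to the motifs listed after the sequences.
CXCL9: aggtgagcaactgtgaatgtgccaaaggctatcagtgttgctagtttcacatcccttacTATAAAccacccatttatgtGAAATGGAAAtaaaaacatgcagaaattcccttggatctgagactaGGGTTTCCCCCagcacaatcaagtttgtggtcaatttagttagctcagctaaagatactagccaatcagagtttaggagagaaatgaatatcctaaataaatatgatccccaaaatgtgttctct
CXCL10: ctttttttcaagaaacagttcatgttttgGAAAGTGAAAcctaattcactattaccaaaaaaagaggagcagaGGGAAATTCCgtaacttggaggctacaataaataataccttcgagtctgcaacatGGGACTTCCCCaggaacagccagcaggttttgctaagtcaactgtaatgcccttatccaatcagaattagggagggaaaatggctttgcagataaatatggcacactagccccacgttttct
CXCL11: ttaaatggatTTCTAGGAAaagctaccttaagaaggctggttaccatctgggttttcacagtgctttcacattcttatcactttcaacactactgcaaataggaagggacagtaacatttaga

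In the 250 bases before each start, searched on both strands, the ISRE core GAAANNGAAA was found in CXCL9, 171 to 162 bases before the start, and in CXCL10, 221 to 212 bases before it. This core occurs in 3.02% of the 35116 promoters of the same table. The GAS motif TTCNNNGAA, present in 6.57% of promoters, was found in CXCL11, 240 to 232 bases before the start. The narrower κB motif searched, GGGNNTTTCC, held by 1.73% of promoters, was in none of the 3 windows. Motifs of intermediate strictness were not searched, so this does not show that κB sites are absent. The relaxed κB motif GGGNNNNNCC was in all 3 windows, as in 54.4% of promoters. Its matches began 125 bases before the CXCL9 start (2 overlapping matches), 177 and 122 bases before the CXCL10 start (the second again with an overlapping match), and 76 bases before the CXCL11 start. The letters TATAAA, in 10.7% of promoters, began 191 bases before the CXCL9 start and 42 bases before the CXCL11 start. These are letter matches in a window, not measured binding.

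The libraries held between 9586125 and 16270128 estimated counts, with a median of 11581719. Levels are given as CPM, the estimated count of a gene relative to the scaled size of its library, and levels of different genes are compared only as TPM, which also divides by length. With 1 library per treatment and duration, the p-values measure only the spread of these libraries around the fitted time courses, and the libraries are not stated to be separate cultures. Intervals of single libraries are exact Poisson intervals (95%) and cover counting error only. Markers of epithelial and ovarian carcinoma cells summed to between 2039.2 and 3783.5 CPM, with all 12 detected, although MUC16 and WT1 had 156 and 100 counts over all libraries. This sum varied with treatment, with 3266.1 to 3396.8 CPM in unstimulated cells. It was 2299.9 to 3512.4 CPM in the combination and 2039.2 to 3189.1 CPM with supernatant 1/2. Markers of T cells summed to 1.31 to 3.87 CPM with supernatant 1/2 and 3.0 to 4.82 CPM in unstimulated cells. Of the 14 T-cell markers CD3E had 0 counts and PTPRC 2 counts in all libraries, and LCK had 1202 of the counts. In bulk RNA, fewer cells making a ligand and less ligand RNA per cell cannot be told apart.

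Unstimulated OVCAR5 cells carried almost no RNA of the 3 ligands, and the highest levels were reached with the combination and with supernatant 1/2. In unstimulated cells CXCL9 had 0, 0, 1 and 2 counts at 2, 6, 12 and 24 h, CXCL10 had 3, 2, 9 and 6 counts, and CXCL11 had 3, 1, 1 and 4 counts. These are 0 to 0.177 CPM for CXCL9, 0.146 to 0.788 CPM for CXCL10 and 0.0732 to 0.353 CPM for CXCL11. A level of 3 counts, at which a count of 0 is drawn, is 0.226 CPM in the 2 h library and 0.22 CPM in the 6 h library. The CXCL9 intervals of these libraries reached up to 0.278 and 0.27 CPM.

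With the combination, CXCL9 reached 41.7, 396.5, 1646.1 and 5389.1 CPM at 2, 6, 12 and 24 h. CXCL10 reached 278.2, 2997.5, 5597.1 and 6591.5 CPM, and CXCL11 reached 50.6, 907.8, 3013.5 and 4310.1 CPM. No library of another treatment came near these at the same duration except the one with supernatant 1/2. Per length, CXCL10 at 24 h of the combination was the 10th most abundant of all genes at 6896.6 TPM, CXCL11 the 27th at 3079.6 TPM and CXCL9 the 49th at 2096.9 TPM. The 3 genes together took 0.0358% of all counts at 2 h, 0.397% at 6 h, 0.918% at 12 h and 1.46% at 24 h.

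**Figure D1:**
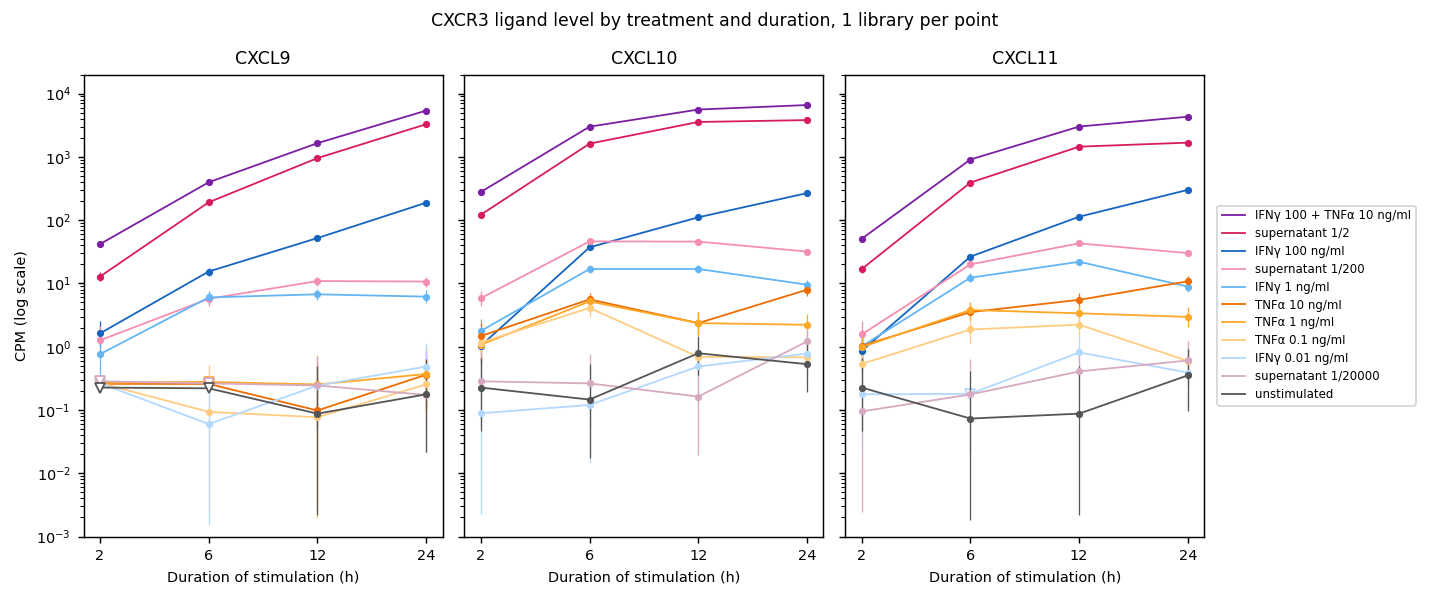
Levels of CXCL9, CXCL10 and CXCL11 (CPM, log scale) against duration (h, evenly spaced marks), 1 point per library. Lines join the libraries of 1 treatment and bars show exact 95% Poisson intervals. Open triangles are libraries with 0 counts, drawn at the level of 3 counts. The combination ended at 5389.1, 6591.5 and 4310.1 CPM, and unstimulated cells stayed at or below 0.788 CPM.

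Pooled over the 4 durations, the counts were higher in the combination than in unstimulated cells by 29174.1-fold for CXCL9 (95% exact binomial interval 9982.4 to 141471.3), 9396.4-fold for CXCL10 (6083.9 to 15383.5) and 11012.4-fold for CXCL11 (5800.9 to 24084.2). All 3 ligands were called higher, where 23.5% of the 14469 genes tested were. Among those genes CXCL9 had the smallest p of all (adjusted p = 1.85e-23 by edgeR), and the fitted changes of CXCL9, CXCL10 and CXCL11 held ranks 2, 3 and 4 from the highest. The order of the treatments at 24 h was nearly the same for each ligand. After the combination came supernatant 1/2, then IFNγ 100 ng/ml, then supernatant 1/200, each with a counting interval apart from the next. Below these, CXCL10 at IFNγ 1 ng/ml (9.56 CPM, interval 7.90 to 11.5) and at TNFα 10 ng/ml (7.95 CPM, interval 6.38 to 9.80) were not apart, and neither were the corresponding CXCL11 levels of 8.90 and 10.8 CPM. For CXCL9 the gap was wide there, with 6.18 CPM at IFNγ 1 ng/ml against 0.361 CPM at TNFα 10 ng/ml. The intervals of the lowest treatments (supernatant 1/20000, TNFα 0.1 ng/ml and IFNγ 0.01 ng/ml) all overlapped those of unstimulated cells at 24 h.

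IFNγ raised all 3 ligands from 1 ng/ml upwards, and the doses parted with time. At 100 ng/ml CXCL9 reached 1.62, 15.4, 52.1 and 188.6 CPM at 2, 6, 12 and 24 h, CXCL10 reached 1.03, 37.2, 110.8 and 267.2 CPM, and CXCL11 reached 0.855, 26.5, 113.2 and 301.2 CPM. At 1 ng/ml the same durations gave 0.76, 6.00, 6.73 and 6.18 CPM for CXCL9, 1.77, 16.9, 16.9 and 9.56 CPM for CXCL10, and 1.01, 12.3, 22 and 8.90 CPM for CXCL11. The higher dose thus had each ligand still increasing between 12 and 24 h, by 3.62-fold for CXCL9, 2.41-fold for CXCL10 and 2.66-fold for CXCL11. With the lower dose the ratio of 24 h to 12 h was 0.918 for CXCL9, 0.566 for CXCL10 and 0.405 for CXCL11.

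Set against 1 ng/ml, 100 ng/ml gave a CXCL10 ratio of 0.578 at 2 h (interval 0.259 to 1.23), 2.20 at 6 h, 6.55 at 12 h and 28 at 24 h (23.2 to 33.9). CXCL9 gave ratios of 2.14, 2.57, 7.74 and 30.5, and CXCL11 ratios of 0.843, 2.15, 5.16 and 33.8. The doses could not be told apart at 2 h for any of the ligands within counting error. The fitted differences between the doses were 2.31 ± 0.18 (log2 ± SE, n = 4 libraries each) for CXCL9 (adjusted p = 2.2e-08 by edgeR), 1.84 ± 0.27 for CXCL10 (adjusted p = 0.00168 by edgeR) and 1.73 ± 0.26 for CXCL11 (adjusted p = 0.00179 by edgeR). All 3 ligands were among the 25 genes called higher at the higher dose, which are 0.173% of those tested, and CXCL9 had the smallest p. Without the 6 h library of 100 ng/ml the differences were 1.81 for CXCL10 and 1.58 for CXCL11, no longer called (adjusted p = 0.157 and 0.268 by edgeR). Without slope terms the CXCL10 difference was 2.77 and not called (adjusted p = 0.0842 by edgeR).

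Against unstimulated cells, none of the 3 ligands was called at IFNγ 0.01 ng/ml, where 0.0415% of genes were called higher. There CXCL9 had 9 counts in all against 3 in unstimulated cells, CXCL10 17 against 20, and CXCL11 16 against 9. The ratio of pooled counts was 2.95 for CXCL9 (0.735 to 16.9), 0.835 for CXCL10 (0.411 to 1.68) and 1.75 for CXCL11 (0.727 to 4.48), and each of these intervals holds 1. At single durations CXCL11 had 10 counts against 1 at 12 h, a ratio of 9.27 with an interval of 1.32 to 402.2, and 4 against 4 at 24 h. IFNγ 1 ng/ml raised CXCL10 by 4.79 ± 0.52 (adjusted p = 9.58e-07 by edgeR) and CXCL11 by 5.60 ± 0.56 (adjusted p = 2.14e-07 by edgeR). Leaving out 1 unstimulated library moved these values and left both called, with CXCL10 at 5.46 without the 2 h library and 4.01 without the 6 h library. CXCL11 was at 7.47 without the 2 h library, 5.0 without the 6 h library and 7.04 without the 24 h library. Pooled CXCL9 counts were 82.3-fold higher (27.8 to 401.9). All 3 were called at 1 ng/ml, where 5.54% of genes were called higher, and at 100 ng/ml, where 9.38% were.

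**Figure D2:**
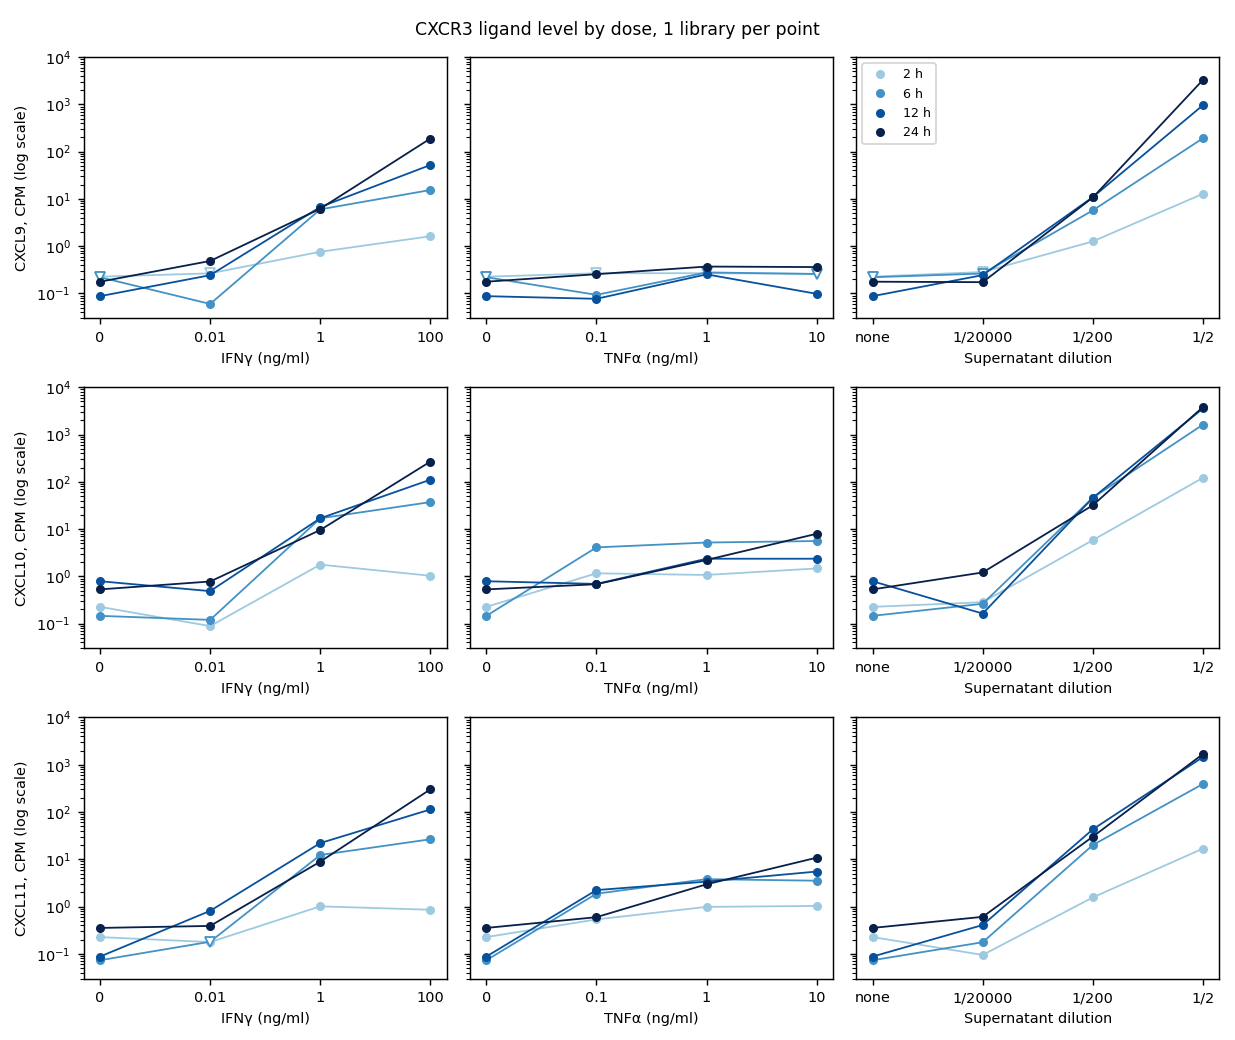
Levels of the ligands (rows; CPM, log scale) against IFNγ dose, TNFα dose and supernatant dilution (columns), 1 point per library, one line for each duration; 0 and none are the unstimulated libraries, and open triangles are libraries with 0 counts, drawn at the level of 3 counts. At IFNγ 1 ng/ml the 6, 12 and 24 h levels of CXCL9 lie together at 6.00 to 6.73 CPM, and at 100 ng/ml they spread from 15.4 to 188.6 CPM.

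At 1 and 10 ng/ml, TNFα alone raised CXCL10 and CXCL11 to low levels, and CXCL9 stayed at single counts with 10 ng/ml. At 2, 6, 12 and 24 h CXCL10 had 1.16, 4.10, 0.692 and 0.681 CPM at 0.1 ng/ml, 1.07, 5.19, 2.36 and 2.22 CPM at 1 ng/ml, and 1.47, 5.59, 2.36 and 7.95 CPM at 10 ng/ml. It was lower at 12 h than at 6 h with each TNFα dose, and its 6 h levels at the 3 doses lay between 4.10 and 5.59 CPM with overlapping counting intervals. CXCL11 had 1.03, 3.52, 5.50 and 10.8 CPM at 10 ng/ml. CXCL9 had 0, 0, 1 and 4 counts in the libraries of 10 ng/ml, and its pooled count of 5, against 3 in unstimulated cells, gives a ratio of 1.86 (0.362 to 12.0). At 24 h the doses differed, with a ratio of 10 to 0.1 ng/ml of 11.7 for CXCL10 and 18 for CXCL11.

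At TNFα 0.1 ng/ml the fitted values, against unstimulated cells, of 2.05 ± 0.80 for CXCL10 and 2.78 ± 0.87 for CXCL11 did not pass (adjusted p = 0.159 and 0.0648 by edgeR, n = 4 libraries each), where 4.02% of genes were called higher. Pooled counts there were 3.93-fold higher for CXCL10 (2.37 to 6.81) and 7.33-fold higher for CXCL11 (3.62 to 16.8), intervals that cover counting error only. CXCL11 passed there without the unstimulated 2 h library (4.66, adjusted p = 0.0493 by edgeR) or the unstimulated 24 h library (4.24, adjusted p = 0.0341 by edgeR). At 1 ng/ml CXCL10 rose by 2.85 ± 0.70 (adjusted p = 0.00581 by edgeR) and CXCL11 by 3.79 ± 0.75 (adjusted p = 0.000803 by edgeR), 2 of 3 ligands where 11.5% of genes were called higher. The CXCL10 call at 1 ng/ml was lost without the unstimulated 6 h library (2.09, adjusted p = 0.0597 by edgeR). At 10 ng/ml CXCL10 rose by 3.39 ± 0.66 (adjusted p = 0.000587 by edgeR) and CXCL11 by 4.20 ± 0.74 (adjusted p = 0.000178 by edgeR), against 14.3% of genes called higher. CXCL11 ran from 3.20 without the unstimulated 6 h library to 5.67 without the unstimulated 2 h library at 1 ng/ml, and from 3.6 to 6.07 at 10 ng/ml, still called. CXCL10 at 10 ng/ml ran from 2.62 to 4.06 without the same libraries, also still called. Without the unstimulated 24 h library CXCL11 was 5.25 at 1 ng/ml and 5.65 at 10 ng/ml. The highest and lowest TNFα doses differed by 1.33 ± 0.49 for CXCL10 and 1.42 ± 0.50 for CXCL11, and neither passed (adjusted p = 0.169 and 0.137 by edgeR), against 3.16% of genes called higher. Without the 12 h library of 10 ng/ml the CXCL10 value was 1.70 (adjusted p = 0.0266 by edgeR).

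The 2 cytokines alone differed most for CXCL9. IFNγ 100 ng/ml exceeded TNFα 10 ng/ml by 3.24 ± 0.32 for CXCL10 (adjusted p = 6.14e-08 by edgeR) and by 3.13 ± 0.31 for CXCL11 (adjusted p = 8.74e-08 by edgeR). Pooled counts with IFNγ were 570.2-fold higher for CXCL9 (244.1 to 1757.3), 23.7-fold for CXCL10 (20.6 to 27.6) and 21.4-fold for CXCL11 (18.8 to 24.6). The CXCL9 ratio rests on 5 counts with TNFα. All 3 ligands were called higher where 11.1% of genes were. At 2 h CXCL10 stood at 1.03 CPM with IFNγ 100 ng/ml and at 1.47 CPM with TNFα 10 ng/ml, a ratio of 0.70 (0.305 to 1.55), and CXCL11 gave 0.826 (0.32 to 2.09). By 6 h the ratio was 6.66 for CXCL10 and 7.52 for CXCL11, and by 24 h it was 33.6 and 28.

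Adding TNFα 10 ng/ml to IFNγ 100 ng/ml raised every ligand at every duration by more than an order of magnitude. The ratio of the combination to IFNγ alone for CXCL9 was 25.7 at 2 h (16.2 to 43), 25.7 at 6 h, 31.6 at 12 h and 28.6 at 24 h (27.4 to 29.8). For CXCL10 it was 271.2 at 2 h (155.0 to 525.6), 80.5 at 6 h, 50.5 at 12 h and 24.7 at 24 h (23.8 to 25.6). For CXCL11 it was 59.3 at 2 h (32 to 124.3), 34.3 at 6 h, 26.6 at 12 h and 14.3 at 24 h (13.8 to 14.8). The CXCL9 ratio stayed within a narrow range while those of CXCL10 and CXCL11 became smaller at each later duration. At 2 h the IFNγ library held 19 CXCL9 counts, and the ligands together 41 counts, against 3841 counts in the combination.

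The fitted effect of adding TNFα was 4.85 ± 0.12 for CXCL9 (adjusted p = 1.86e-19 by edgeR, the smallest of all genes), 6.17 ± 0.23 for CXCL10 (adjusted p = 2e-14 by edgeR) and 5.00 ± 0.21 for CXCL11 (adjusted p = 1.18e-13 by edgeR), with n = 4 libraries each. All 3 were called, against 16.1% of genes called higher. The change of this effect per doubling of duration was -0.94 ± 0.18 for CXCL10 (adjusted p = 0.00358 by edgeR) and -0.68 ± 0.18 for CXCL11 (adjusted p = 0.0257 by edgeR), and -0.01 ± 0.08 for CXCL9 (adjusted p = 0.977 by edgeR). Thus 2 of 3 ligands were called, against 3.16% of genes with a lower slope. The CXCL10 slope was no longer called without the IFNγ 2 h library (-0.94, adjusted p = 0.0779 by edgeR) or the IFNγ 24 h library (-0.90, adjusted p = 0.115 by edgeR). The CXCL11 slope was lost without the IFNγ library of 2 h (-0.73), 6 h (-0.79) or 24 h (-0.36) or the combination library of 2 h (-0.62) or 24 h (-0.76), with adjusted p by edgeR of 0.0663 to 0.573. Neither slope was called by DESeq2 (-0.93, adjusted p = 0.112, and -0.54, adjusted p = 0.396).

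**Figure D3:**
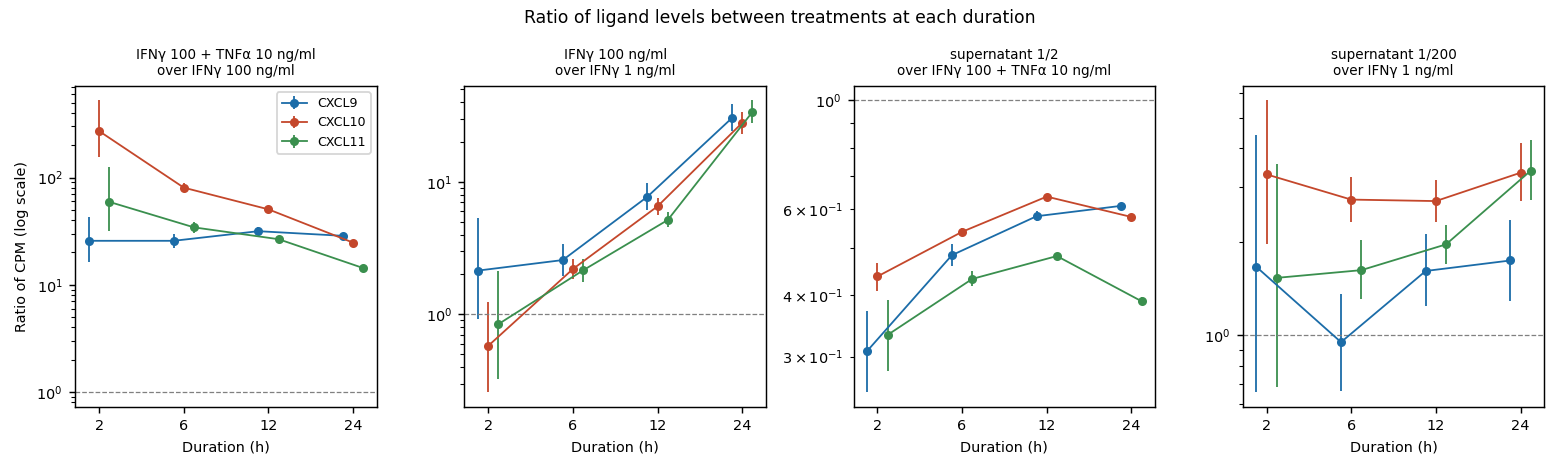
Ratio of ligand levels (CPM over CPM, log scale, dashed line at 1) at each duration (h) for 4 pairs of treatments, with 95% exact binomial intervals for counting error. In the left panel CXCL10 runs between 271.2 at 2 h and 24.7 at 24 h while CXCL9 stays between 25.7 and 31.6, and in the second panel the ratio of the IFNγ doses reaches 28 to 33.8 at 24 h.

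The combination also exceeded the sum of the levels under each cytokine alone. For CXCL10 the ratio of the combination to that sum was 111.3, 70.1, 49.5 and 24.0 at 2, 6, 12 and 24 h. For CXCL9 it was 25.7, 25.7, 31.5 and 28.5, and for CXCL11 26.8, 30.2, 25.4 and 13.8. On a multiplicative scale each ligand was fitted on its own, and a difference between the ligands was not tested. The fitted interaction, the log2 effect of the combination beyond the summed log2 effects of the single cytokines, was 2.78 ± 1.16 for CXCL10 and 0.80 ± 1.26 for CXCL11, and neither passed (adjusted p = 0.407 and 0.901 by edgeR), against 0.352% of genes called higher. DESeq2 called the CXCL10 interaction (2.86, adjusted p = 0.0297). For CXCL9, with 3 counts in unstimulated cells and 5 at TNFα 10 ng/ml, the interaction could not be measured with any precision. Against TNFα 10 ng/ml alone, the combination raised CXCL10 by 9.41 ± 0.27 (adjusted p = 1.92e-16 by edgeR) and CXCL11 by 8.13 ± 0.25 (adjusted p = 2.98e-16 by edgeR), and pooled CXCL9 counts were 15669.5-fold higher (6714.2 to 48260.3). All 3 were called, against 12.5% of genes.

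The T-cell co-culture supernatant raised all 3 ligands at dilutions of 1/200 and 1/2, and its effect depended steeply on dilution. At 1/20000 no library exceeded 0.244 CPM for CXCL9, 1.21 CPM for CXCL10 or 0.606 CPM for CXCL11. At 1/200, CXCL9 had 1.26, 5.71, 10.9 and 10.7 CPM at 2, 6, 12 and 24 h, CXCL10 had 5.84, 46.1, 45.8 and 31.9 CPM, and CXCL11 had 1.56, 20, 43 and 30.1 CPM. At 1/2, CXCL9 reached 12.8, 191.4, 955.5 and 3279.9 CPM at these durations, CXCL10 reached 121.5, 1616.7, 3559.5 and 3811.1 CPM, and CXCL11 reached 16.8, 392.1, 1449.0 and 1677.7 CPM. Against unstimulated cells none of the ligands was called at 1/20000, where 1 gene (0.00691%) passed by edgeR, and the pooled ratios there were 1.81 for CXCL9 (0.352 to 11.6), 1.19 for CXCL10 (0.622 to 2.31) and 1.81 for CXCL11 (0.742 to 4.69). At 12 h alone CXCL10 had 2 counts with 1/20000, against 9 in unstimulated cells, a ratio of 0.206 (0.0217 to 0.997). All 3 were called higher at 1/200, against 7.12% of genes, and at 1/2, against 22.6%.

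Between 1/2 and 1/200 the ratio of CXCL9 grew with time, to 10.1, 33.5, 88.0 and 305.4 at 2, 6, 12 and 24 h. That of CXCL10 was 20.8, 35, 77.8 and 119.6, and that of CXCL11 was 10.8, 19.6, 33.7 and 55.7. The fitted differences were 5.68 ± 0.13, 5.63 ± 0.21 and 4.56 ± 0.20 for CXCL9, CXCL10 and CXCL11 (adjusted p = 5.34e-20, 3.8e-14 and 3.43e-13 by edgeR), and all 3 were called where 17% of genes were called higher. Between 12 and 24 h, CXCL9 at 1/2 increased by 3.43-fold, CXCL10 by 1.07-fold and CXCL11 by 1.16-fold. The combination showed the same contrast over that interval, with ratios of 3.27 for CXCL9, 1.18 for CXCL10 and 1.43 for CXCL11. At 1/200 the ratios of 24 h to 12 h were 0.982, 0.697 and 0.70.

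Supernatant 1/2 stayed below the combination for each ligand at each duration. The ratio of the supernatant to the combination was 0.308, 0.483, 0.58 and 0.609 for CXCL9 at 2, 6, 12 and 24 h, 0.437, 0.539, 0.636 and 0.578 for CXCL10, and 0.332, 0.432, 0.481 and 0.389 for CXCL11. The fitted differences were -1.06 ± 0.10 for CXCL9 (adjusted p = 3.14e-07 by edgeR), -0.88 ± 0.17 for CXCL10 (adjusted p = 0.00211 by edgeR) and -1.28 ± 0.16 for CXCL11 (adjusted p = 3.02e-05 by edgeR). All 3 ligands were called lower, against 3.95% of genes, and CXCL9 ranked 4th by p. DESeq2 kept the call for CXCL11 and not for CXCL9 (-1.07, adjusted p = 0.0764) or CXCL10 (-0.87, adjusted p = 0.291), and without slope terms none of the 3 passed by edgeR (adjusted p = 0.0669 to 0.315).

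Counts pooled over the durations were higher with supernatant 1/200 than with IFNγ 1 ng/ml. The ratio was 1.53 for CXCL9 (1.29 to 1.80), 2.96 for CXCL10 (2.69 to 3.26) and 2.28 for CXCL11 (2.06 to 2.52). These intervals cover counting error only and leave out the spread between libraries. The CXCL10 ratio of the supernatant to IFNγ was 3.29, 2.73, 2.70 and 3.33 at 2, 6, 12 and 24 h, with intervals that lay above 1 at each duration. The CXCL9 ratio was 1.66, 0.951, 1.61 and 1.74, and the CXCL11 ratio was 1.53, 1.62, 1.96 and 3.38. The fitted difference of CXCL10 was 1.5 ± 0.25 (adjusted p = 0.0211 by edgeR), and CXCL10 was 1 of 4 genes called higher, 0.0276% of those tested. For CXCL9 (0.43 ± 0.20) and CXCL11 (0.89 ± 0.26) the adjusted p by edgeR was 1. The CXCL10 call was lost without the supernatant library of 2 h (1.61), 6 h (1.42) or 12 h (1.47) or the IFNγ library of 2 h (1.34), 6 h (1.63), 12 h (1.59) or 24 h (1.40), with adjusted p by edgeR of 0.0861 to 0.519. It was also lost with DESeq2 (1.55, adjusted p = 0.875) and without slope terms (1.59, adjusted p = 1.0 by edgeR).

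The trend of each treatment effect with time was also fitted against unstimulated cells, whose few counts leave it imprecise. Per doubling of duration, the effect of IFNγ 100 ng/ml on CXCL10 changed by 1.48 ± 0.87 and that on CXCL11 by 2.30 ± 1.13 (adjusted p = 0.48 and 0.358 by edgeR). Without the unstimulated 2 h library these were 0.78 and 0.36, and without the unstimulated 24 h library the CXCL11 value was 3.77. None of the 3 ligands was called for a higher slope with IFNγ 100 ng/ml (2.52% of genes were), TNFα 10 ng/ml (1.47%), the combination (11.1%) or supernatant 1/2 (8.34%). DESeq2 called the slope of CXCL11 for the combination (1.65, adjusted p = 0.015), supernatant 1/2 (1.73, adjusted p = 0.0127) and IFNγ 100 ng/ml (2.20, adjusted p = 0.00325), and that of CXCL10 for IFNγ 100 ng/ml (1.71, adjusted p = 0.016).

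The makeup of the ligand RNA was compared per length, as the share of each gene in the summed TPM of the 3. CXCL10 led in each library with the combination, with 84.8%, 79.6%, 67.7% and 57.1% at 2, 6, 12 and 24 h, while CXCL9 made up 4.72%, 3.92%, 7.41% and 17.4% and CXCL11 10.5%, 16.5%, 24.9% and 25.5%. Supernatant 1/2 gave CXCL10 shares of 88.2%, 82.7%, 72.6% and 61.7%, and CXCL9 shares of 3.47%, 3.64%, 7.24% and 19.7%. With IFNγ 100 ng/ml the CXCL10 share was 46.3%, 61.0%, 53.4% and 49.2% and the CXCL11 share 26.4%, 29.6%, 37.3% and 37.9%, the 2 h values resting on 41 counts. CXCL10 thus took a larger part of the ligand RNA in the combination and the supernatant than with IFNγ alone at each duration, most so at 2 h.

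The log2 ratio of CXCL11 to CXCL10 (TPM plus 0.1) averaged -1.97 ± 0.83 in the combination and -0.66 ± 0.29 with IFNγ 100 ng/ml (SD, n = 4 durations each), a difference of -1.31 with p = 0.0286 by a two-sided exact permutation test and an adjusted p of 0.129 over 9 tests. In supernatant 1/2 it averaged -2.39 ± 0.77, a difference of -1.73 from IFNγ 100 ng/ml with the same p and adjusted p by the exact permutation test. The groups did not overlap in either case, and 0.0286 is the smallest p that 4 libraries against 4 can give. Each library of 1 treatment has a counterpart at the same duration, and within durations both differences were negative in 4 of 4 pairs (exact sign-flip permutation p = 0.125, the smallest that 4 pairs can give, adjusted p = 0.321). The log2 ratio of CXCL9 to CXCL10 differed by -1.40 between the combination and IFNγ 100 ng/ml and by -1.58 between supernatant 1/2 and IFNγ 100 ng/ml, with an exact permutation p of 0.143 in both. Between supernatant 1/2 and the combination the differences were -0.42 for CXCL11 to CXCL10, -0.18 for CXCL9 to CXCL10 and 0.25 for CXCL9 to CXCL11, with an exact permutation p of 0.514, 0.714 and 0.686. That test takes the change over durations, which both treatments share, as spread. Within durations, CXCL11 to CXCL10 was lower with supernatant 1/2 than with the combination at each of 2, 6, 12 and 24 h, by -0.39, -0.32, -0.40 and -0.57 (mean -0.42 ± 0.11, SD, n = 4 pairs), with an exact sign-flip permutation p of 0.125 and an adjusted p of 0.321. The other ratios of this pair of treatments did not keep 1 sign over the durations, with -0.49 to 0.07 for CXCL9 to CXCL10 and -0.10 to 0.64 for CXCL9 to CXCL11. The remaining CXCL9 to CXCL11 differences, against IFNγ 100 ng/ml, were -0.10 for the combination and 0.15 for supernatant 1/2 (exact permutation p = 0.829 and 0.629).

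**Figure D4:**
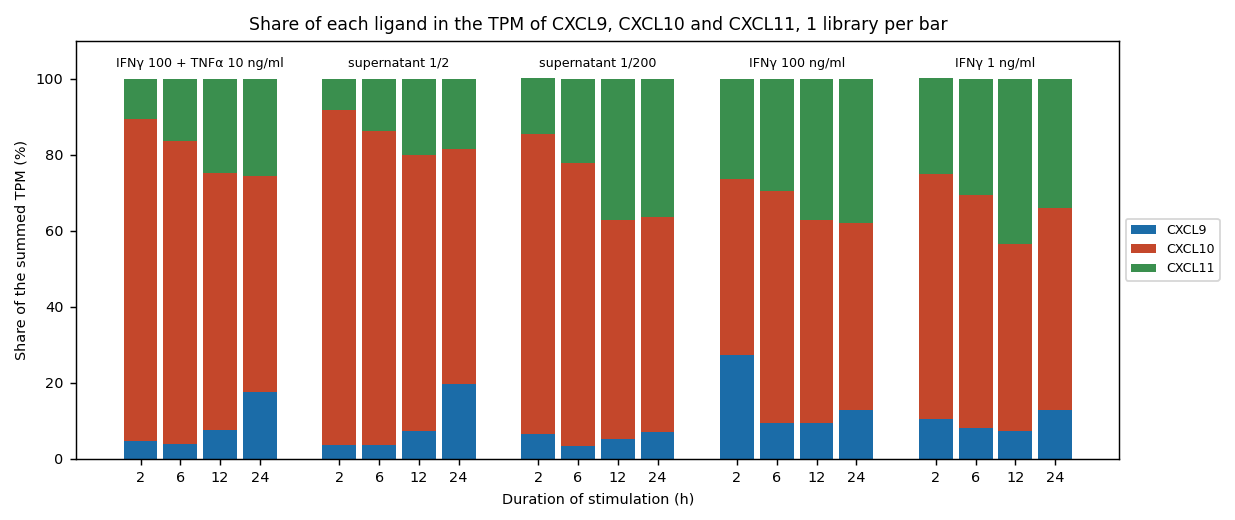
Share of CXCL9, CXCL10 and CXCL11 in their summed TPM (%, linear axis from 0) for 5 treatments, with 1 bar per library in the order 2, 6, 12 and 24 h. The CXCL10 share of the combination goes down over these durations as 84.8%, 79.6%, 67.7% and 57.1%, and the CXCL9 share is highest at 24 h in the combination (17.4%) and in supernatant 1/2 (19.7%).

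Of the genes that receive or process the ligands, only the peptidase passed the filter on low counts. CXCR3 had 4 counts over all 44 libraries, and the scavenging receptor ACKR3 did not exceed 0.462 CPM. DPP4, the membrane peptidase that clips the amino terminus of CXCR3 ligands, was the 1 tested gene of this list of 8. In the combination it had 73.1, 79.4, 103.6 and 202.9 CPM at 2, 6, 12 and 24 h, against 79.5, 73.1, 82.1 and 111.6 CPM in unstimulated cells. It rose by 0.30 ± 0.07 with the combination (adjusted p = 0.00106 by edgeR), by 0.30 ± 0.07 with supernatant 1/2 (adjusted p = 0.00116 by edgeR) and by 0.42 ± 0.07 with IFNγ 100 ng/ml (adjusted p = 8.6e-05 by edgeR), and fell by 0.47 ± 0.07 with TNFα 10 ng/ml (adjusted p = 2.05e-05 by edgeR).

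The IFNγ pathway was represented by 18 genes for its receptor, kinases, transcription factors and feedback inhibitors. Of these, 17 were called higher and 1 lower in the combination, 17 higher with supernatant 1/2, 13 higher with IFNγ 100 ng/ml and 11 higher with TNFα 10 ng/ml. Over all genes tested, 23.5% were called higher and 22.4% lower in the combination, 22.6% higher with supernatant 1/2, 9.38% higher with IFNγ 100 ng/ml and 14.3% higher with TNFα 10 ng/ml. In the combination IRF1 rose by 5.06 ± 0.35, IRF8 (a further interferon regulatory factor) by 4.57 ± 0.30 and SOCS1 (the feedback inhibitor of the JAK kinases) by 4.53 ± 0.35, and PIAS1, a SUMO ligase, fell by 0.16 ± 0.06 (adjusted p from 5.66e-12 to 0.0292 by edgeR). IRF1 had 1756.0, 1372.8, 1390.0 and 1482.5 CPM in the combination at 2, 6, 12 and 24 h and 926.0, 1015.4, 995.6 and 1063.0 CPM with IFNγ 100 ng/ml. The IRF1 levels of these groups did not overlap.

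Set directly against IFNγ 100 ng/ml, the combination moved 8 of these 18 genes higher and none lower, where 16.1% of all genes were called higher and 13.4% lower, with a median difference of 0.37 against -0.01 over all genes tested. IRF8 differed by 0.14 ± 0.20 (adjusted p = 0.671 by edgeR) and IRF1 by 0.57 ± 0.29 (adjusted p = 0.15 by edgeR). Among those that passed were IFNGR2, the signaling chain of the IFNγ receptor, at 1.85 ± 0.16 (adjusted p = 1.18e-08 by edgeR), and IRF7 at 0.92 ± 0.11 (adjusted p = 1.68e-07 by edgeR). IFNGR2 had 133.8 to 215.2 CPM in the combination, 166.0 to 236.6 CPM with TNFα 10 ng/ml and 45.0 to 50.9 CPM with IFNγ 100 ng/ml, so that it was high in both treatments with TNFα.

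The TNF receptor and NF-κB list held 20 genes, and all were tested. In the combination 18 were called higher, with supernatant 1/2 19, with IFNγ 100 ng/ml 6 and with TNFα 10 ng/ml 14, where 1 was lower. The shares of all genes called higher were 23.5%, 22.6%, 9.38% and 14.3% in these comparisons, and 10.1% were called lower with TNFα 10 ng/ml. The combination raised TNFAIP3, which encodes the NF-κB inhibitor A20, by 5.25 ± 0.35, NFKBIA (IκBα) by 4.20 ± 0.18, RELB by 3.05 ± 0.21 and NFKB2 by 2.84 ± 0.20 over unstimulated cells (adjusted p from 4.85e-14 to 7.64e-11 by edgeR). Set against IFNγ 100 ng/ml, 16 of the 20 were called higher, against 16.1% of all genes, with a median difference of 1.06, and TNFAIP3 differed by 4.57 ± 0.34. TNFAIP3 had 803.4, 440.7, 500.7 and 664.0 CPM in the combination at 2, 6, 12 and 24 h, 756.5, 300.3, 302.3 and 284.9 CPM with TNFα 10 ng/ml, and 17.3, 33.6, 26.3 and 25.8 CPM with IFNγ 100 ng/ml. Its level in the combination was thus highest at 2 h, where the ligands were at their lowest.

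**Figure D5:**
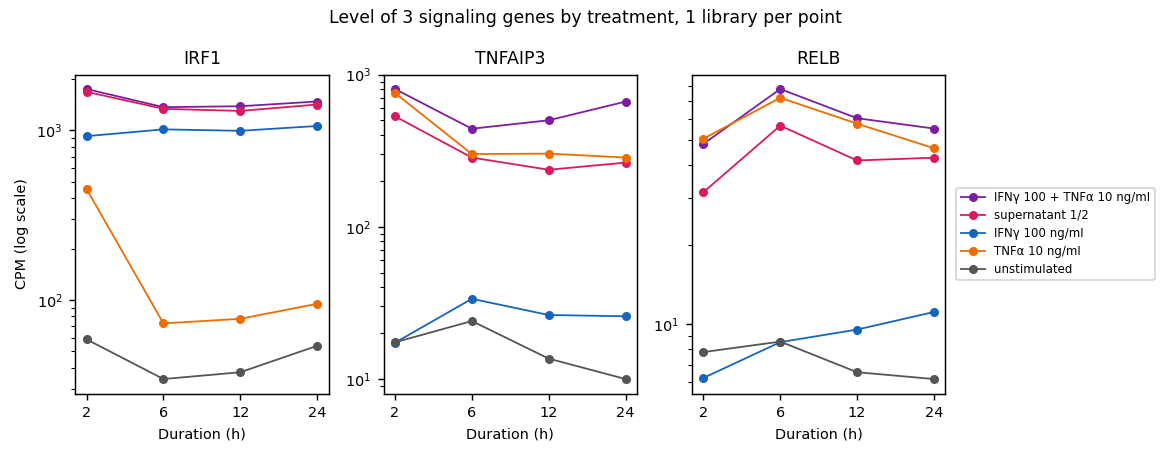
Levels (CPM, log scale) of IRF1, TNFAIP3 and RELB against duration (h) for the combination, supernatant 1/2, IFNγ 100 ng/ml, TNFα 10 ng/ml and unstimulated cells, 1 point per library. IRF1 lies at 1372.8 to 1756.0 CPM in the combination and 926.0 to 1063.0 CPM with IFNγ 100 ng/ml, and TNFAIP3 at 440.7 to 803.4 CPM in the combination and 17.3 to 33.6 CPM with IFNγ 100 ng/ml.

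Other interferons can also induce these ligands, and a list of 12 genes covered their ligands and receptors together with IFNG and TNF. Of these 5 were tested and 4 were called higher in the combination, where 23.5% of all genes were. TNF rose by 6.57 ± 0.49, IFNAR2 by 2.47 ± 0.12, IFNAR1 by 0.65 ± 0.12 and IL10RB by 0.34 ± 0.12 (all called by edgeR). IFNB1 stayed at 0.106 CPM or less, and IFNL1 at 1.38 CPM or less, in the combination, supernatant 1/2, IFNγ 100 ng/ml, TNFα 10 ng/ml and unstimulated libraries. IFNL1 had 0 counts in each unstimulated library and 6, 2, 6 and 13 counts in the combination at 2, 6, 12 and 24 h. At these durations it had 5, 1, 0 and 2 counts with TNFα 10 ng/ml, and 2, 0, 1 and 1 with supernatant 1/2. Whether IFNL1 differed between treatments was not tested. At the gene locus itself, 5 of 9 neighbours of the ligands were tested and 4 were called higher in the combination, against 23.5% of all genes, all by far less than the ligands: STBD1 by 1.2 ± 0.43, SDAD1 by 0.41 ± 0.05, SCARB2 by 0.36 ± 0.05 and NUP54 by 0.17 ± 0.06. ART3, which spans CXCL10 and CXCL11 on the opposite strand, had at most 17 counts in a library. The kit marks strand, but the strand that was counted is not given in the sources used here, and reads of ART3 and the ligands were not separated further.

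The ligands followed each other closely over the 44 libraries, with Pearson's r of log2 CPM of 0.98 between CXCL10 and CXCL11, 0.956 between CXCL9 and CXCL10 and 0.95 between CXCL9 and CXCL11. The r to CXCL9 was higher for C1R (0.963), MMP25-AS1 (0.961) and LMO7 (0.957) than for either other ligand. No gene outside the ligands reached 0.98 to CXCL10 or CXCL11. These values are a description, since all libraries share the treatments. The 8 genes with the highest r to each ligand made 18 distinct genes, of which 1 stood in all 3 lists and 4 in 2. The gene in all 3 was C1S, a protease of the classical complement pathway, with r of 0.956, 0.949 and 0.964 to CXCL9, CXCL10 and CXCL11. Its level at 24 h was 259.1 CPM in the combination, 236.3 CPM with supernatant 1/2, 38.9 CPM with IFNγ 100 ng/ml, 10.2 CPM with TNFα 10 ng/ml and 1.24 CPM in unstimulated cells.

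For CXCL9 the closest gene was C1R (r = 0.963), which encodes the other protease of the C1 complex, followed by MMP25-AS1, LMO7, C1S, RALA, EGLN3, PLSCR1 and the DNA sensor IFI16 (r = 0.949). For CXCL10 it was HAPLN3, a link protein of hyaluronan (r = 0.955), followed by TRAFD1, TMPRSS3, MMP25-AS1, C1S, RNF19B, CDC42EP4 and PML, the scaffold of nuclear bodies (r = 0.94). For CXCL11 it was C1S, followed by LMO7, TMPRSS3, the inflammatory caspase CASP4, CD47, CTSS (the lysosomal protease cathepsin S), PML and OR2I1P (r = 0.954). CTSS had 481.7 CPM in the combination at 24 h, 68.5 CPM with IFNγ 100 ng/ml, 19.1 CPM with TNFα 10 ng/ml and 1.15 CPM in unstimulated cells. OR2I1P had 1245.0 CPM in the combination at 24 h, 126.3 CPM with IFNγ 100 ng/ml and 1.68 CPM in unstimulated cells. Whether reads assigned to OR2I1P come from an overlapping gene was not checked. MMP25-AS1 is an antisense RNA, and without the counted strand its reads cannot be told apart from those of its partner.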

How the data were processed

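Per the labels' protocols, stranded mRNA libraries were made from total RNA whose integrity number was above 8 and sequenced on an Illumina HiSeq instrument. The deposited tables give expected counts per gene as estimated by Salmon, per the file headers, and the TPM of the authors. The submitters' processing notes name STAR, Salmon, UMI-tools and GRCh38. The sources used here give no tool versions, counted strand or sequencing pools. If pools followed duration, pool and duration cannot be told apart; duration is a term in every fit.

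Expected counts were rounded to whole numbers for testing; those of the 3 ligands were whole in 44 of 44 libraries, while 18.58% to 20.57% of genes per library were fractional. A gene name table named 33113 of the 33538 identifiers and GENCODE v29 another 343, which left 82 without a name. In R 4.3.3, edgeR 4.0.16 with limma 3.58.1 kept 14469 genes (filterByExpr, minimum count 10, minimum total 15), scaled by TMM (factors 0.896 to 1.081) and fitted all 44 libraries with terms for duration and treatment and a slope of each treatment over centred log2 duration (24 coefficients, 20 residual degrees of freedom, median biological coefficient of variation 7.49%). The robust quasi-likelihood F test was adjusted by Benjamini-Hochberg over all genes, and an adjusted p under 0.05 was called. A fitted effect is a log2 change, taken at the average log2 duration and weighted by counts, with an SE derived from F. The model was tested on simulated data. Where CXCL9 has few counts, pooled ratios with 95% exact binomial intervals replace the fitted fold. Correlations used log2 CPM with a prior count of 2, and ligand ratios TPM plus 0.1 with two-sided exact permutation tests in SciPy 1.17.1. DESeq2 1.42.0 was an alternative.

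The ligands, the gene lists, the motifs and the rule for named genes were chosen with earlier results of these data known. That rule takes the 3 ligands, the 8 genes with the highest r to each, and, in each list, the called genes among the 4 largest changes in either direction in the combination; 1 gene it takes is not reported here. DPP4 under other treatments, IFNGR2, IRF7, CXCR3, ACKR3, IFNB1, IFNL1 and ART3, the named cell markers, and the genes set directly against IFNγ 100 ng/ml, were described outside it.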

Additional observations from a re-analysis of the deposited data

Results flagged for a closer look

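The effect of adding TNFα 10 ng/ml to IFNγ 100 ng/ml differed between durations for 2 ligands, by a test of the change of the effect itself. Per doubling of duration it changed by -0.94 ± 0.18 on the log2 scale for CXCL10 (adjusted p = 0.00358 by edgeR), with ratios of the combination to IFNγ alone of 271.2, 80.5, 50.5 and 24.7 at 2, 6, 12 and 24 h. For CXCL11 it changed by -0.68 ± 0.18 (adjusted p = 0.0257 by edgeR), with ratios of 59.3, 34.3, 26.6 and 14.3. The ratio was smaller at each later duration for both genes. At 2 h the IFNγ library held few ligand counts. Without it the changes were as large, at -0.94 for CXCL10 and -0.73 for CXCL11, but not called (adjusted p = 0.0779 and 0.139 by edgeR). Without the IFNγ 24 h library they were -0.90 for CXCL10 and -0.36 for CXCL11 (adjusted p = 0.115 and 0.573 by edgeR). DESeq2 called neither (-0.93 and -0.54, adjusted p = 0.112 and 0.396).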

How the results depend on the processing

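The labels carry no replicate numbers. Libraries of different treatments pair by duration, which is a term in every edgeR and DESeq2 fit. Pairing the ligand ratios by duration gave adjusted p of 0.321 to 0.875 by the exact sign-flip permutation test. That test could gain no call, since 4 pairs give no p below 0.125. The unpaired tests of the ratios held no call to lose. Of 40 calls on the ligands, 26 held in every alternative run, none of 554 alternative values of called results reversed, and 47 missed the threshold. With DESeq2 size factors in edgeR no value changed its call or sign. For every result listed here the cause was not tested, except that settings with fewer durations test fewer libraries.

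With DESeq2, calls were gained for CXCL11 at TNFα 0.1 ng/ml (2.60) and between TNFα 10 and 0.1 ng/ml (1.80), for the CXCL10 interaction (2.86), and for the slopes of IFNγ 100 ng/ml on CXCL10 (1.71) and CXCL11 (2.20), of the combination on CXCL11 (1.65) and of supernatant 1/2 on CXCL11 (1.73). Calls were lost for supernatant 1/2 against the combination (CXCL9 -1.07, CXCL10 -0.87), supernatant 1/200 against IFNγ 1 ng/ml (CXCL10 1.55) and the slope of the combination against IFNγ 100 ng/ml (CXCL10 -0.93, CXCL11 -0.54). Signs turned for CXCL10 at supernatant 1/20000 (0.10) and the CXCL9 slope of the combination against IFNγ (0.06). With no filter on low counts the CXCL11 slope of that pair was lost (-0.68, adjusted p = 0.0505 by edgeR).

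Without slope terms, calls were lost for CXCL10 at TNFα 1 ng/ml (2.74), between the IFNγ doses (2.77) and between supernatant 1/200 and IFNγ 1 ng/ml (1.59), and for supernatant 1/2 against the combination (CXCL9 -0.96, CXCL10 -0.85, CXCL11 -1.27). Signs turned for CXCL10 at supernatant 1/20000 (0.15), CXCL9 between the TNFα doses (0.12) and the CXCL11 interaction (-0.35). With only 2 h and 6 h, calls were lost for CXCL11 at IFNγ 1 ng/ml (5.39), TNFα 1 ng/ml (CXCL10 4.03, CXCL11 3.97), TNFα 10 ng/ml (4.22 and 3.90), the IFNγ doses (CXCL9 1.33, CXCL10 0.90, CXCL11 0.96), supernatant 1/2 against the combination (CXCL10 -1.03, CXCL11 -1.33) and supernatant 1/200 against IFNγ 1 ng/ml (CXCL10 1.53). Signs turned for CXCL11 at IFNγ 0.01 ng/ml (-1.17) and at supernatant 1/20000 (CXCL9 -0.03, CXCL10 0.51, CXCL11 -0.15). With only 12 h and 24 h, calls were lost for TNFα 1 ng/ml (CXCL10 1.79, CXCL11 3.8), CXCL10 at TNFα 10 ng/ml (2.95), supernatant 1/2 against the combination (CXCL9 -0.76, CXCL10 -0.73, CXCL11 -1.23) and CXCL10 of supernatant 1/200 against IFNγ 1 ng/ml (1.56). Signs turned for CXCL10 at supernatant 1/20000 (0.02), CXCL9 between the TNFα doses (0.46) and the CXCL11 interaction (-0.97).

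Leaving out 1 library at a time moved no called value across 0. Calls were lost or gained in 20 such values, over ranges of 2.20 to 4.66 for CXCL11 at TNFα 0.1 ng/ml, 2.09 to 3.53 for CXCL10 at TNFα 1 ng/ml, 0.77 to 1.81 for CXCL10 between the TNFα doses, 1.69 to 1.98 for CXCL10 and 1.55 to 1.94 for CXCL11 between the IFNγ doses, 1.34 to 1.63 for CXCL10 of supernatant 1/200 against IFNγ 1 ng/ml, and -0.98 to -0.86 for CXCL10 and -0.79 to -0.36 for CXCL11 in the slope of the combination against IFNγ. Among results that were not called, signs turned over ranges of -0.38 to 2.28 for CXCL11 at IFNγ 0.01 ng/ml, -0.50 to 0.54 for CXCL9 at TNFα 10 ng/ml, and -0.24 to 1.62 for CXCL9, -1.44 to 0.58 for CXCL10 and -0.34 to 2.13 for CXCL11 at supernatant 1/20000. They also turned for the CXCL11 interaction (-1.05 to 1.41) and for slopes against unstimulated cells with TNFα 10 ng/ml (CXCL10 -0.90 to 0.47, CXCL11 -0.82 to 2.58), the combination (CXCL10 -0.16 to 0.97, CXCL11 -0.33 to 3.08) and supernatant 1/2 (CXCL10 -0.04 to 1.09, CXCL11 -0.26 to 3.14). The CXCL9 slope of the combination against IFNγ 100 ng/ml ran from -0.13 to 0.23. The log2 ratio of CXCL9 to CXCL11 against IFNγ 100 ng/ml ran from -0.46 to 0.27 for the combination and from -0.35 to 0.63 for supernatant 1/2.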
